A study of Mus musculus with 23 samples.

Results

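Ribosomal protein genes code for the protein part of both ribosomes of a mouse cell, and 95 of them were read out of the 8251 genes that the array names with a single symbol. They were chosen by symbol alone (Rpl and Rps followed by a digit, Rplp, Mrpl and Mrps, without the Rps6k kinases), and the probe set with the highest mean over the 23 arrays stood for each gene. By symbol, 34 of the 95 were classed as cytosolic and 61 as mitochondrial. A symbol does not show that the product sits in the ribosome, and Mrps36 is a case described below. A further 39 probe sets name a cytosolic ribosomal protein among several symbols and 5 name a mitochondrial one, so that Rps6 and Rpl3, for example, were not among the members.

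The cells were primary mouse embryonic fibroblasts taken from embryos of age e14.5, all labelled C57/BLACK6 and ATF1 -/+. Cultures were starved for 48 h in 1% dialyzed serum and then kept for 2 h in 1% serum (starved) or 10% serum (treated), in both cases with 200 µM 4-thiouridine and tritiated cytidine. 4-Thiouridine is a uridine analogue that enters RNA as it is made, and RNA carrying its thiol was captured on an organomercurial matrix as newly transcribed RNA. Each serum condition had 4 arrays of newly transcribed RNA and 4 of total RNA, and amplified total RNA had 3 starved and 4 treated arrays. All samples share 1 protocol text that speaks of linear amplification, so total and amplified total RNA are told apart by their titles alone. The study's design text asks how synthesis and turnover of RNA contribute to the early serum response. The labels number the arrays as biological replicates and do not say which cultures or embryos a number shares.

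The cytosolic ribosome makes nearly all proteins of the cell, and its own mRNAs are among the most abundant and long-lived that a fibroblast has. Most of them begin with a C followed by an unbroken run of pyrimidines, the 5′ terminal oligopyrimidine (TOP) tract, through which their translation follows growth factors and nutrients. The mitochondrial ribosome makes only the few proteins coded by mitochondrial DNA, all of them parts of the respiratory chain and ATP synthase. Its own proteins are coded in the nucleus, made in the cytosol and imported.

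The start sites of the members that stood lowest against amplified total RNA are shown first, because the TOP tract is the sequence feature by which cytosolic ribosomal protein mRNAs are usually recognised. Each window holds 15 bases before and 15 bases from the annotated transcription start, 5′ to 3′ on the gene's strand, from RefSeq's mouse annotation on GRCm38.p6. Capitals from the 16th base on mark a C at the start followed by at least 4 bases that are each C or T, and capitals before it mark CCGGAA or its reverse complement TTCCGG, the core bound by ETS-family factors. The 5 cytosolic windows are chr17:28328456-28328485 on the plus strand (Rpl10a), chr17:27635230-27635259 on the minus strand (Rps10), chr1:72711245-72711274 on the plus strand (Rpl37a), chr12:28635939-28635968 on the minus strand (Rps7) and chr17:33955651-33955680 on the minus strand (Rps18).
Rpl10a: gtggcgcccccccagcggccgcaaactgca
Rps10: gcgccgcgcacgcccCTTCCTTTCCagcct
Rpl37a: ttccgctcgccggtctaaaaccgcgcatgc
Rps7: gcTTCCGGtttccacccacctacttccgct
Rps18: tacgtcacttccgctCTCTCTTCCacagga
The 5 mitochondrial windows are chr7:142533017-142533046 on the plus strand (Mrpl23), chr3:95871500-95871529 on the minus strand (Mrps21), chr6:92184009-92184038 on the minus strand (Mrps25), chr4:126046913-126046942 on the plus strand (Mrps15) and chr3:87919529-87919558 on the plus strand (Mrpl24). For Mrpl23 and Mrpl24 the start listed is not the outermost one of the gene.
Mrpl23: cggggttgggggtggggtggggtttgcggg
Mrps21: gcttcctcccgtcgcgggactccgtagctt
Mrps25: gaagtgcctcccaagattcccggagccgcg
Mrps15: atCCGGAAccgatccattcgctcagccctc
Mrpl24: ttcctgtttcctgtccattttgtagcaacg

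The promoter table held a window for 27 of the 34 cytosolic and 54 of the 61 mitochondrial members. The TOP-type tract lay exactly at the annotated start of 4 of the 27 cytosolic members (14.8%), Rpl38, Rps10, Rps18 and Rps27, and of 0 of the 54 mitochondrial ones, against 2.48% of the 27025 genes in the table. For 5 of the 27 cytosolic and 16 of the 54 mitochondrial windows the start used was not the gene's outermost one. An annotated start that is off by 1 base can hide the tract, so these shares describe the annotation as much as the genes. CCGGAA on either strand, anywhere in the 300 bases of the full window, stood in 14 cytosolic (51.9%) and 27 mitochondrial members (50%), and in 15.2% of all genes. The E-box CACGTG, a palindrome bound by MYC among others that overlaps neither of the other motifs, stood in 7.41% of the members of each class and in 7.23% of all genes.

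The class medians set the main pattern. For each array, the log2 level of every member was taken relative to that member's own mean over the 23 arrays, and the median over the class was read. Levels are log2 of the quantile-normalized intensity plus 16, and levels of different probe sets are not set against each other. In newly transcribed RNA the cytosolic median was -0.42 ± 0.16 in starved (SD, n = 4) and -0.32 ± 0.18 in treated cells (SD, n = 4). In amplified total RNA it was 0.20 ± 0.20 (SD, n = 3) and 0.23 ± 0.07 (SD, n = 4), and in total RNA 0.27 ± 0.07 and 0.23 ± 0.09 (SD, n = 4 each). Every newly transcribed array (-0.66 to -0.12) thus lay below every array of total (0.15 to 0.35) and amplified total RNA (0.08 to 0.43) for the cytosolic class. The same held with arrays scaled to one median, but not on values as deposited. There newly transcribed arrays reached up to -0.09 in starved and -0.04 in treated cells. Starved amplified (-1.51 to 0.69), treated amplified (-0.35 to 0.99) and starved total arrays (-0.30 to 0.48) overlapped with them. Treated total arrays (0.29 to 0.49) did not.

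The mitochondrial class followed another order. Its median was -0.28 ± 0.22 in starved and -0.18 ± 0.33 in treated newly transcribed RNA (SD, n = 4 each), and 0.05 ± 0.16 and -0.07 ± 0.12 in total RNA (SD, n = 4 each). In amplified total RNA it was 0.29 ± 0.27 (SD, n = 3) and 0.33 ± 0.26 (SD, n = 4). Here newly transcribed arrays (-0.64 to 0.11) overlapped with total arrays (-0.21 to 0.18), and amplified total arrays ran from 0.11 to 0.64. The cytosolic minus the mitochondrial median was 0.22 ± 0.09 and 0.30 ± 0.06 in starved and treated total RNA, positive on all 8 arrays. It was -0.14 ± 0.08 and -0.14 ± 0.17 in newly transcribed and -0.09 ± 0.07 and -0.09 ± 0.20 in amplified total RNA. In amplified total RNA that sign turned with the scaling, to 0.11 ± 0.28 and 0.10 ± 0.34 with arrays scaled to one median and to 0.06 ± 0.18 and 0.14 ± 0.37 on values as deposited. It stayed positive in total and negative in newly transcribed RNA under both. These medians are scores over members chosen by name, so they are given as a description with no test.

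**Figure D1:**
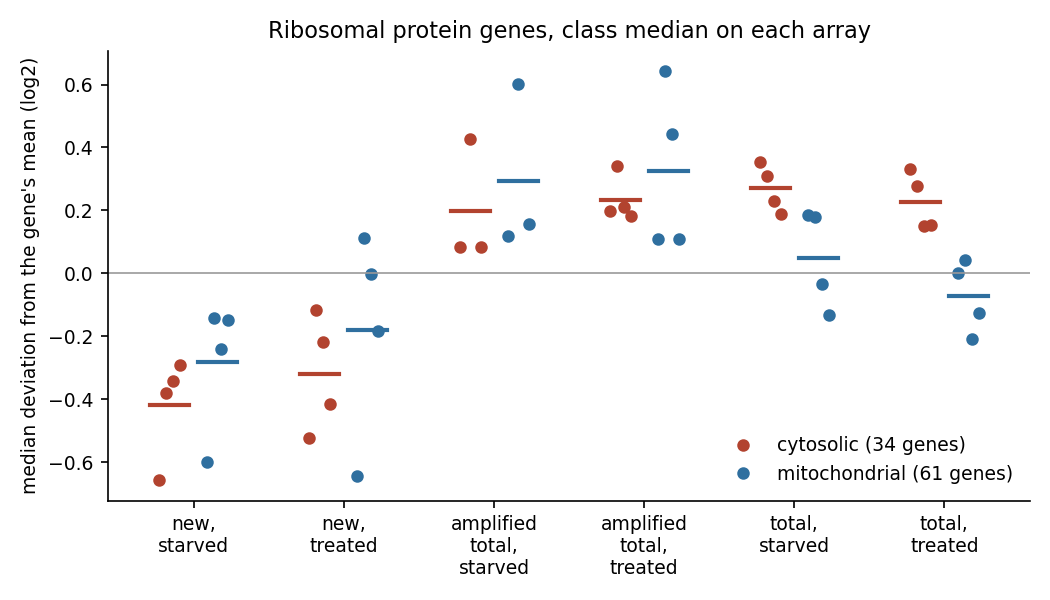
Class median of the log2 level on each array, relative to each gene's mean over the 23 arrays, for 34 cytosolic (red) and 61 mitochondrial (blue) genes in the 6 groups, after quantile normalization; points are arrays and bars are group means. All cytosolic points of newly transcribed RNA lie below 0 and all others above, while the mitochondrial points of newly transcribed and total RNA overlap.

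The arrays differ in several properties, not all of which follow the kind of RNA, and their part in the results was not tested. The log2 ratio of the 3′ to the 5′ control probe set of GAPDH was 2.16 ± 0.65 in newly transcribed (SD, n = 8), 1.55 ± 0.60 in amplified total (SD, n = 7) and -0.20 ± 0.11 in total RNA (SD, n = 8), and that of actin was 2.37 ± 0.55, 2.27 ± 0.44 and 0.35 ± 0.17. Hierarchical clustering of whole profiles put replicates 1 and 4 of newly transcribed RNA with amplified starved 1 and 3 and amplified treated 1 and 4 (cluster 1), and all other arrays, total RNA included, in cluster 2. Median deposited intensities per array ran from 7.3 to 75.2. Fibroblast markers were well represented, with 9 of 10 at a mean intensity of at least 50 and Vim below it. Of 8 macrophage markers 7 also reached 50, led by Lyz2, and their deposited intensities summed to 749.7 to 6193 on newly transcribed arrays. The same sum was 1948.5 to 6156.8 on total and 330 to 9820.1 on amplified total arrays. Endothelial (0 of 5), epithelial (1 of 5), muscle (0 of 4), neural (1 of 4) and erythroid (0 of 2) markers mostly stayed under 50. In bulk RNA, fewer cells of a type and less RNA per cell cannot be told apart.

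Newly transcribed RNA was compared with amplified total RNA first. Of the 34 cytosolic members 19 were lower in newly transcribed RNA and 1 was higher, with a median log2 difference of -0.71 against -0.0043 over all 12422 probe sets. Among all probe sets 9.12% were called lower and 8.57% higher (limma, Benjamini-Hochberg adjusted p below 0.05). Of the 61 mitochondrial members 25 were lower and 5 higher, with a median of -0.57. The large cytosolic subunit had 10 of 17 lower and the small one 9 of 17, and in the mitochondrial ribosome it was 16 of 40 and 9 of 21. All 19 cytosolic members called lower were among the 24 with a mean intensity of at least 50. Of the 10 dimmer ones 0 were called, and whether signal bounds these counts was not tested. The 7 dim mitochondrial members held 2 of the 25. When the 6182 probe sets with a mean intensity of at least 50 were fitted alone, 16.4% were lower and 16.4% higher. The medians of the dim members were -0.11 (cytosolic) and -0.30 (mitochondrial).

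Rpl10a, a protein of the large subunit's L1 stalk, stood farthest below. Its log2 levels in newly transcribed RNA were 7.60, 7.71, 7.99 and 7.48 in starved and 8.21, 8.87, 8.88 and 8.07 in treated cells. In amplified total RNA they were 10.11, 11.52 and 9.89 in starved and 10.13, 11.51, 11.35 and 10.02 in treated cells. Every newly transcribed array lay below every amplified one, and within amplified RNA the arrays of cluster 1 were the low ones. The difference was -2.51 ± 0.30 (SE; limma, adjusted p = 5.21e-05). A second Rpl10a probe set gave -1.29 (limma, adjusted p = 0.000238).

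Rpl37a, a zinc-binding protein of the large subunit, was the next clearest case. It read 7.90, 8.27, 8.05 and 9.04 in starved and 8.35, 9.14, 9.06 and 9.14 in treated newly transcribed RNA. Amplified total arrays read 10.59, 10.70 and 10.02 in starved and 10.50, 10.52, 10.60 and 10.30 in treated cells. The ranges did not overlap, with newly transcribed arrays spread more widely than amplified ones, and the difference was -1.82 ± 0.20 (SE; limma, adjusted p = 2.81e-05). Rps10, which sits near the entry of the mRNA channel and carries one of the TOP-type tracts printed above, differed by -1.84 ± 0.31 (SE; limma, adjusted p = 0.000915). Rps7, a small-subunit protein needed in subunit assembly, differed by -1.70 ± 0.36 and Rps18, also with a TOP-type tract at its start, by -1.50 ± 0.34 (SE; limma, adjusted p = 0.00464 and 0.00633).

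Smaller differences were seen in the members most often used as references. Rplp0, the base of the acidic stalk and a common normaliser, read 11.88, 12.16, 12.09 and 11.78 in starved and 11.89, 12.31, 12.19 and 11.68 in treated newly transcribed RNA. Amplified total arrays stood at 12.48, 12.80 and 12.54 in starved and 12.50, 12.74, 12.63 and 12.74 in treated cells. The groups did not overlap, although the difference was only -0.63 ± 0.11 (SE; limma, adjusted p = 0.00129). Rps3, which lines the mRNA entry and also has a role in DNA repair, differed by -0.64 ± 0.13 (limma, adjusted p = 0.00385), but within cluster 2 it was -0.36 and not called. Rpl13a, which can leave the ribosome to silence translation after interferon, differed by -0.85 ± 0.28 (limma, adjusted p = 0.0478), and leaving out any 1 of 11 of the 15 arrays ended that call.

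The exception among cytosolic members was Rpl7l1, a paralogue of Rpl7. It read 7.41, 8.11, 7.54 and 8.25 in starved and 7.94, 9.02, 8.37 and 8.09 in treated newly transcribed RNA. Its levels in amplified total RNA were 6.51, 7.68 and 6.66 in starved and 6.20, 8.02, 7.87 and 6.62 in treated cells. The ranges overlapped, because 3 amplified arrays of cluster 2 stood high, and the difference was 1.04 ± 0.30 (SE; limma, adjusted p = 0.0266). The call was lost without amplified starved 1, amplified starved 3, amplified treated 4 or newly transcribed treated 2, with differences from 0.87 to 1.21, and within cluster 2 the value was 0.51. Rpl7 itself differed by -0.95 (limma, adjusted p = 0.0235).

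The other paralogues were less uniform. Rps4x, the X-linked form of a small-subunit protein, was lower by -0.89 ± 0.20 and its paralogue Rps4l by -1.23 ± 0.35 (SE; limma, adjusted p = 0.00684 and 0.0251). Rps4x was not called as the mean of its probe sets, at -0.33, or within cluster 1, at -1.13. The Rps4l call was lost without amplified starved 2, amplified treated 2, amplified treated 3 or newly transcribed treated 4, and a dimmer Rps4l probe set gave -0.16. Rpl39l, a paralogue of Rpl39 known from testis, was lower by -0.66. Rps27l, a p53-responsive paralogue of Rps27, had a mean intensity of 6.77 and a difference of -0.56 ± 0.30 (SE; limma, adjusted p = 0.244). Rpl32, with a mean intensity of 4.86, read 0.14 ± 0.22 (limma, adjusted p = 0.732).

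Among mitochondrial members, Mrpl23 of the large subunit was farthest below. It read 6.73, 7.05, 6.65 and 6.93 in starved and 6.48, 7.39, 7.32 and 7.01 in treated newly transcribed RNA. Its amplified total arrays read 8.81, 9.82 and 8.50 in starved and 8.73, 9.65, 9.86 and 8.61 in treated cells. More than 1 log2 unit lay between the groups, and the difference was -2.18 ± 0.24 (SE; limma, adjusted p = 2.83e-05). Mrps21, a small-subunit protein, differed by -2.05 ± 0.32, Mrps25 by -1.78 ± 0.23, Mrps15 by -1.76 ± 0.24 and Mrpl24 by -1.67 ± 0.15 (SE; limma). Mrpl58, a peptidyl-tRNA hydrolase built into the mitochondrial ribosome, was lower by -1.14. Mrps36, whose product is now counted to the alpha-ketoglutarate dehydrogenase complex, was lower by -0.91.

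Against these, 5 mitochondrial members were higher in newly transcribed RNA. Mrps2, a small-subunit protein with a bacterial counterpart, read 8.43, 8.75, 8.72 and 8.56 in starved and 7.90, 8.61, 8.27 and 8.40 in treated newly transcribed RNA. Amplified total RNA gave 7.01, 6.16 and 6.99 in starved and 6.94, 6.36, 6.39 and 7.03 in treated cells. No arrays overlapped, and the difference was 1.74 ± 0.17 (SE; limma, adjusted p = 1.11e-05). Mrpl9 was higher by 1.18 ± 0.15, Mrpl50 by 1.15 ± 0.21, Mrpl44, which has a ribonuclease III fold, by 0.97 ± 0.18, and Mrps31 by 0.73 ± 0.19 (SE; limma). Within cluster 1 the differences of Mrpl50, Mrpl44 and Mrps31 were 1.01, 0.72 and 0.70 and were not called. A second Mrpl50 probe set of like brightness gave 0.94 (limma, adjusted p = 0.135).

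The remaining members named by the fixed list were Mrps12, Mrpl12 and Mrpl15. Mrps12, the decoding-centre protein that corresponds to bacterial S12, was lower by -0.71 ± 0.19 (limma, adjusted p = 0.0158), but with arrays scaled to one median (-0.62) and within cluster 1 (-0.50) it was not called. Mrpl12, the stalk protein that also binds the mitochondrial RNA polymerase, read -0.08 ± 0.57 and Mrpl15 -0.07 ± 0.17 (SE; limma, adjusted p = 0.95 and 0.837). The Mrpl12 levels spread widely, from 4.86 in amplified starved 1 to 8.42 in amplified treated 2, so that a difference of 1 log2 unit would not have been seen there.

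Arrays that did not overlap at all were counted as a check that needs no model. Of the cytosolic members 8 were lower on every newly transcribed array than on every amplified one, Rpl10a, Rpl37a, Rpl7, Rpl7a, Rplp0, Rps19, Rps28 and Rps3, and so were 10 mitochondrial members. Among all probe sets 3.61% were. Another 2 mitochondrial members, Mrpl9 and Mrps2, were higher on every newly transcribed array, where 1.92% of all probe sets were. In starved cells alone the cytosolic median was -0.75, with 31 of 34 members below 0, and in treated cells it was -0.64, with 27 below 0. For the mitochondrial class it was -0.53 (48 of 61 below 0) and -0.64 (43 of 61).

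The number of calls between these kinds of RNA rests on scaling the arrays. On values as deposited, whose array medians differ by the range given above, 1 cytosolic and 0 mitochondrial members were called lower and 0 and 1 higher, while the medians were -0.65 and -0.18 with 0.12 over all probe sets. Of all probe sets 0.129% were then lower and 0.555% higher. With arrays scaled to one median, 20 cytosolic members were lower and 1 higher, and 22 and 5 of the mitochondrial ones, against 8.84% and 8.54% of all probe sets. Within cluster 1 alone 15 cytosolic and 14 mitochondrial members were lower (5.63% of all probe sets), and within cluster 2 the counts were 20 and 32 (15.3%).

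**Figure D2:**
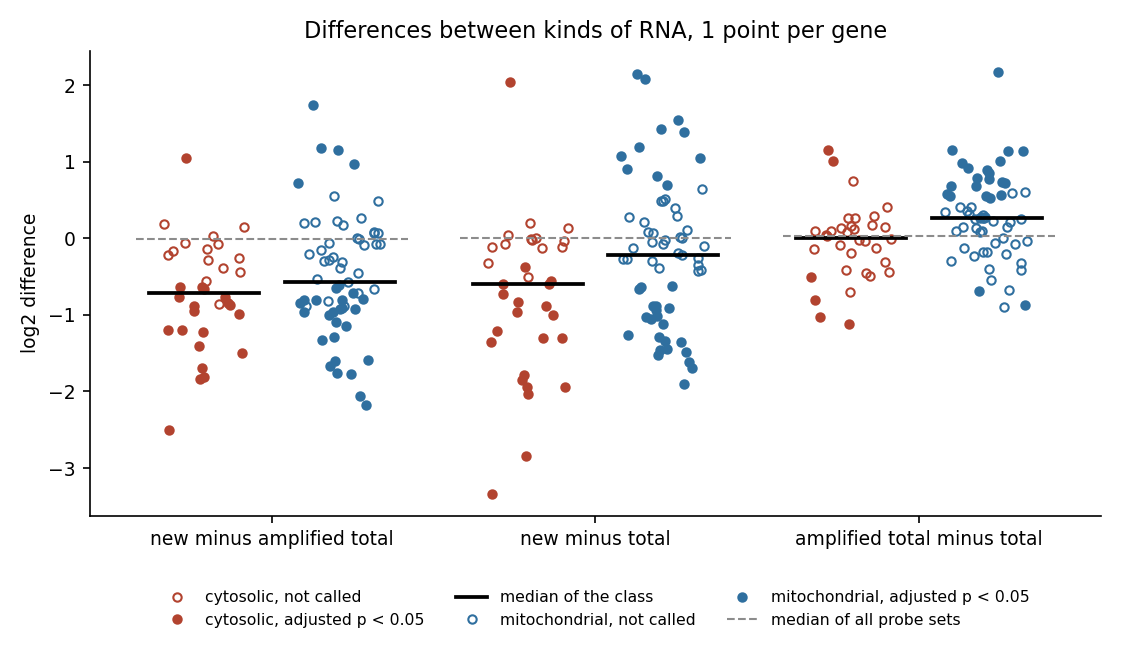
Log2 difference of each ribosomal protein gene in newly transcribed minus amplified total, newly transcribed minus total, and amplified total minus total RNA; filled points passed an adjusted p below 0.05, black bars are class medians and the dashed line is the median of all probe sets. Cytosolic genes (red) lie mostly below 0 in the first pair of comparisons with Rpl7l1 above, and mitochondrial genes (blue) spread to both sides, with 20 called higher in amplified total than in total RNA.

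Newly transcribed RNA was next compared with total RNA, whose titles name no amplification. This comparison uses the same newly transcribed arrays as the one before. Of the 34 cytosolic members 20 were lower and 1 was higher, with a median of -0.60 against 0.0093 over all probe sets, of which 18.9% were lower and 20.3% higher. Of the 61 mitochondrial members 22 were lower and 11 higher, with a median of -0.22. Most of them (54 of 61) had a mean intensity of at least 50. When the 6182 probe sets of that intensity were fitted alone, 30.2% were lower and 31.1% higher. All 20 cytosolic members called lower were again among the 24 brighter ones, whose median was -0.99, while the 10 dim ones had a median of -0.02. On every array, 16 cytosolic members were lower in newly transcribed than in total RNA and 1 was higher, against 8.19% of all probe sets lower and 7.64% higher. For mitochondrial members these counts were 15 lower and 9 higher.

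Rpl10a read 11.57, 11.68, 11.24 and 11.33 in starved and 11.55, 11.54, 11.20 and 11.45 in treated total RNA. Its newly transcribed arrays, given above, all lay more than 2 log2 units lower, and the difference was -3.34 ± 0.17 (SE; limma, adjusted p = 1.52e-09), with -1.13 on the second probe set. Rps7 read 7.99, 9.28, 9.13 and 9.08 in starved and 8.05, 9.96, 10.21 and 9.02 in treated newly transcribed RNA. In total RNA it read 11.84, 12.18, 11.91 and 11.96 in starved and 11.92, 11.96, 11.80 and 11.86 in treated cells. Total RNA was tight and newly transcribed RNA was spread over 2 log2 units, with replicate 1 lowest in both conditions. The difference was -2.84 ± 0.27 (SE; limma, adjusted p = 7.69e-07).

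Rpl37a (-2.04 ± 0.18), Rps18 (-1.95 ± 0.28) and Rps4l (-1.94 ± 0.29) followed (SE; limma). Rplp0 differed by -0.60 ± 0.09 (limma, adjusted p = 9.69e-05), and its total RNA arrays (12.48 to 12.67) lay above every newly transcribed one. Rps4x differed by -0.97 ± 0.18, Rps3 by -0.38 ± 0.10 and Rpl13a by -0.56 ± 0.21 (SE; limma), and with arrays scaled to one median Rps3 and Rpl13a read -0.33 and -0.16 and were not called. The Rpl13a call was also lost when any 1 of 10 of the 16 arrays was left out. Rps28, a small-subunit protein near the mRNA exit, shows how much the probe set matters. Its brightest probe set gave -0.60 and another bright one -2.52, both called (limma, adjusted p = 4.36e-05 and 2.33e-08), and a dim one gave 0.51 (limma, adjusted p = 0.0177).

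Rpl7l1 stood out upward here too. It read 6.10, 5.88, 6.06 and 5.97 in starved and 5.82, 6.29, 6.12 and 6.23 in treated total RNA, all below its lowest newly transcribed array at 7.41. The difference was 2.03 ± 0.17 (SE; limma, adjusted p = 1.61e-07). Among mitochondrial members Mrps2 (2.15 ± 0.11), Mrpl9 (2.08 ± 0.20), Mrpl44 (1.54 ± 0.18), Mrpl50 (1.43 ± 0.15) and Mrpl43 (1.39 ± 0.16) were highest (SE; limma). Mrps21 (-1.91 ± 0.25), Mrpl52 (-1.70 ± 0.19), Mrpl23 (-1.61 ± 0.16), Mrpl13 (-1.52 ± 0.19) and Mrpl54 (-1.48 ± 0.15) were lowest (SE; limma). Mrpl12, Mrpl15 and Mrps12 read 0.10, -0.10 and 0.29 and were not called (limma, adjusted p = 0.855, 0.648 and 0.203).

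Arrays titled amplified total RNA were then compared with those titled total RNA. The labels do not say whether both came from the same cultures, and all samples share the protocol text that speaks of linear amplification. An effect of amplification alone was not tested. The cytosolic class was centred at 0.01, near the 0.03 of all probe sets, with 2 members higher and 4 lower. The mitochondrial class was centred at 0.27, with 20 of 61 higher and 2 lower, where 10.5% of all probe sets were higher and 9.76% lower. Among the 6182 probe sets with a mean intensity of at least 50, fitted alone, 17% were higher and 15.9% lower. Members apart on every array numbered 1 higher and 3 lower among cytosolic and 11 higher and 1 lower among mitochondrial genes, where 3.13% of all probe sets were apart upward and 2.91% downward. The cytosolic centre depends on scaling: with arrays scaled to one median it was 0.22 (all probe sets 0.09), with 10 members higher and 3 lower (13.6% and 6.47% of all probe sets), and on values as deposited -0.19 (all probe sets -0.09), with 0 called. It also ran from -0.04 without amplified treated 1 to 0.03 without total treated 2. On values as deposited the mitochondrial centre was 0.03, with 1 member higher and 0 lower, where 0.193% of all probe sets were higher and 2.65% lower.

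Mrps25, a small-subunit protein, moved most. It read 8.63, 9.29 and 8.44 in starved and 9.17, 8.62, 8.69 and 8.10 in treated amplified total RNA. In total RNA it read 6.47, 6.88, 6.58 and 6.41 in starved and 6.19, 6.72, 6.65 and 6.44 in treated cells. Newly transcribed RNA, at 6.98, 6.83, 6.42 and 7.71 in starved and 6.49, 7.45, 6.47 and 7.16 in treated cells, lay with total RNA. The amplified minus total difference was 2.17 ± 0.17 (SE; limma, adjusted p = 3.36e-06) and the newly transcribed minus total difference 0.40 ± 0.18 (SE; limma, adjusted p = 0.101). Its other, dimmer probe set gave 0.46 (limma, adjusted p = 0.145) for amplified minus total and -0.69 (limma, adjusted p = 0.00355) for newly transcribed minus total RNA, so the probe sets disagree in sign in the latter.

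Mrps33 (1.16 ± 0.29), Mrpl43 (1.14 ± 0.13), Mrpl35 (1.13 ± 0.13) and Mrps12 (1.01 ± 0.10) were the next highest mitochondrial members (SE; limma), and Mrpl38 (-0.88 ± 0.21) and Mrps17 (-0.69 ± 0.15) the ones called lower. Among cytosolic members Rps19, a small-subunit protein mutated in Diamond-Blackfan anaemia, was higher by 1.15 ± 0.22 and Rpl7l1 by 1.01 ± 0.26 (SE; limma, adjusted p = 0.00207 and 0.0138). Rps7 (-1.12 ± 0.24), Rps27 (-1.03 ± 0.16), Rpl10a (-0.81 ± 0.27) and Rps14 (-0.51 ± 0.13) were lower (SE; limma). The Rps14 probe set is dim, with deposited intensities of 0.7 to 5.2 on amplified total and 4.2 to 21 on total arrays. Its difference is thus one at very low signal. Rpl10a was lost when any 1 of 12 of the 15 arrays was left out and read 0.02 within cluster 2, where the amplified arrays were at 11.35 to 11.52. With the profile cluster as a block, Rps7 (-0.42) and Rps14 (-0.41) were not called, and within cluster 2 alone Rps7 was -0.42 and called. Within cluster 2, 31 mitochondrial members were higher and 0 lower, against 11.6% and 10.2% of all probe sets, with a median of 0.62, and Mrps33, Mrpl38, Mrps17 and Rps14 read 0.38, -0.40, -0.30 and -0.41 and were not called. Rplp0, Rpl13a, Rps3, Rps4x and Rps4l were not called and read 0.03, 0.30, 0.27, -0.09 and -0.70.

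**Figure D3:**
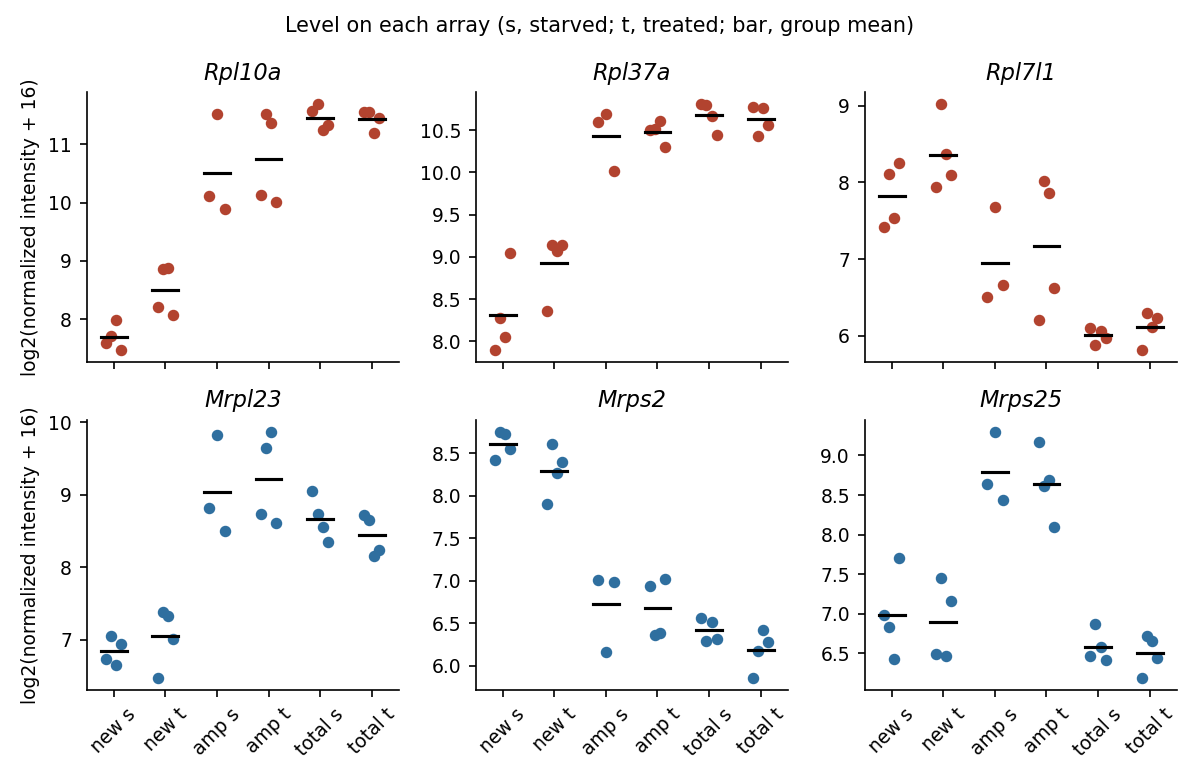
Log2 level on each array for 3 cytosolic genes (red) and 3 mitochondrial genes (blue) in the 6 groups, with black bars at the group means. Rpl10a, Rpl37a and Mrpl23 are low in newly transcribed RNA, Rpl7l1 and Mrps2 are high there, and Mrps25 is high in amplified total RNA alone.

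The serum response, treated minus starved at 2 h, was small for both classes. In newly transcribed RNA 0 of the 95 members were called, as were 0% of all probe sets (limma, adjusted p below 0.05), and at an unadjusted p below 0.05 there were 1 cytosolic and 1 mitochondrial member and 800 of all probe sets. The cytosolic median was 0.19, with 28 of 34 members above 0, the mitochondrial median 0.03 (34 of 61 above 0) and the median of all probe sets 0.01. Leaving out newly transcribed starved 1 took the cytosolic median to 0.09, and leaving out treated 1 to 0.23. The mitochondrial one ran from -0.10 without treated 2 to 0.22 without treated 1. On values as deposited these medians were -0.03, -0.34 and -0.18, so the cytosolic class lay above all probe sets by a like amount while its own sign turned. The cytosolic members with a mean intensity of at least 50 had a median of 0.26, and the dim ones 0.01.

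Rpl10a had the highest value of all members in newly transcribed RNA. Its treated arrays (8.21, 8.87, 8.88 and 8.07) all lay above its starved ones (7.60, 7.71, 7.99 and 7.48), a difference of 0.81 ± 0.23 (SE; limma, adjusted p = 0.544). Same-numbered starved and treated arrays deviate together in newly transcribed and in total RNA, so both were also fitted with the replicate number as a block. With that block Rpl10a was called, at 0.81 ± 0.14 (SE; limma, adjusted p = 0.0477), as the only 1 of 95 members, where 1.74% of all probe sets were called. Its second probe set read 0.83, and in total RNA it read -0.02 ± 0.14. Rpl37a read 0.61 ± 0.29 and Rpl7l1 0.53 ± 0.29 in newly transcribed RNA (limma, adjusted p = 0.84 and 0.892), each with overlapping groups.

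The other named members gave small values in newly transcribed RNA. Rplp0 read 0.04 ± 0.18, Rps3 0.13 ± 0.17, Rpl13a 0.26 ± 0.37, Rps4x -0.12 ± 0.34 and Rps4l 0.19 ± 0.50 (SE; limma, none called). Mrpl12 read 0.20 ± 0.67, Mrps12 0.03 ± 0.31 and Mrpl15 -0.04 ± 0.23 (SE; limma, none called). Mrpl52, a large-subunit protein, had the highest mitochondrial value at 0.66 ± 0.27 (SE; limma, adjusted p = 0.743). Mrpl18, which also takes part in 5S RNA import, had the lowest, at -0.47.

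In total RNA 0 members were called, where 0.121% of all probe sets were, and with the replicate block again 0, where 0.483% were. The cytosolic median was -0.05 (11 of 34 above 0) and the mitochondrial median -0.15 (11 of 61 above 0), against -0.01 over all probe sets. With 1 array left out they ran from -0.08 (without starved 3) to 0.02 (without starved 1) and from -0.17 (without starved 4) to -0.07 (without treated 3). On values as deposited they were 0.33 and 0.23 against 0.21, so the low mitochondrial median is not seen relative to all probe sets there. At an unadjusted p below 0.05 stood Rps20 (-0.36) and Mrpl27 (-0.59, limma, adjusted p = 0.463), against 614 of all probe sets. The Rps20 probe set is dim, with deposited intensities of 3.3 to 14.2 on total arrays. In amplified total RNA 0 members and 0% of all probe sets were called (175 at an unadjusted p below 0.05, none of them a member), with class medians of 0.04 and -0.01. With 1 array left out these ran from -0.02 (without starved 3) to 0.10 (without starved 2) and from -0.11 (without treated 2) to 0.13 (without starved 2).

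The serum responses themselves were compared between kinds of RNA with an interaction term. For newly transcribed minus amplified total RNA 0 members and 0% of all probe sets were called, with class medians of 0.15 (25 of 34 above 0) and -0.01 (30 of 61). The cytosolic one was 0.05 without newly transcribed treated 2 and 0.25 without newly transcribed starved 4, and the mitochondrial one -0.16 without amplified starved 2 and 0.18 without amplified treated 2. For newly transcribed minus total RNA 0 members and again 0% were called, with medians of 0.25 (30 of 34 above 0) and 0.22 (41 of 61), against 0.01 over all probe sets. Without newly transcribed treated 2 these medians were 0.14 and 0.08, and without newly transcribed treated 1 the mitochondrial one was 0.36. At an unadjusted p below 0.05 these gave 1 and 2 members and 201 and 299 of all probe sets. On values as deposited all medians of these differences were negative, as were those of all probe sets (-0.53 and -0.45).

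**Figure D4:**
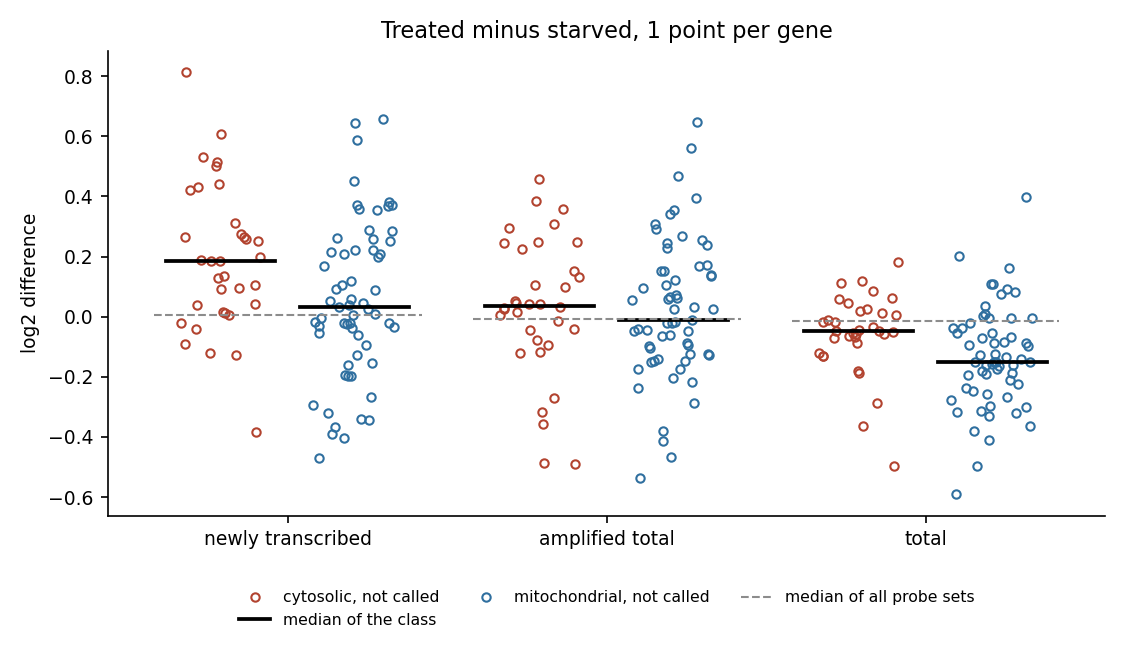
Log2 difference of treated minus starved cells for each cytosolic (red) and mitochondrial (blue) ribosomal protein gene in newly transcribed, amplified total and total RNA, with black bars at class medians and a dashed line at the median of all probe sets. No gene was called in these fits, which leave out the replicate block. With that block Rpl10a was called in newly transcribed RNA. The cytosolic median is highest in newly transcribed RNA (0.19) and the mitochondrial one is lowest in total RNA (-0.15).

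Genes that work beside the ribosomal proteins were read from lists chosen by function. Other translation genes with TOP-type mRNAs had 1 of 17 measured genes lower and 0 higher in newly transcribed against amplified total RNA (median -0.41) and 9 lower and 2 higher against total RNA (median -0.29). Of all probe sets 9.12% were lower and 8.57% higher in the former comparison, and 18.9% and 20.3% in the latter. The 1 lower against amplified RNA was Rpsa, itself a ribosomal protein whose symbol the naming rule does not take, at -0.99 (limma, adjusted p = 0.0232). Against total RNA Naca, a chaperone of nascent chains, was lowest at -1.95 (limma, adjusted p = 2.74e-05). In amplified against total RNA 2 were higher and 5 lower (10.5% and 9.76% of all probe sets), led by the initiation factor Eif4b at -1.57 (limma, adjusted p = 0.000689).

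Ribosome biogenesis genes were read in the same way. Of 26 measured, 9 were higher and 1 lower in newly transcribed than in amplified total RNA (median 0.58, where 8.57% of all probe sets were higher and 9.12% lower), and 14 higher and 3 lower than in total RNA (median 0.57, against 20.3% and 18.9%). Rrs1, needed for large-subunit assembly, was higher by 1.65 against amplified total RNA (limma, adjusted p = 0.00275), and Nip7, another assembly factor, by 2.34 against total RNA (limma, adjusted p = 1.82e-07). Nop10, a small protein of the pseudouridylation complex, was the exception at -1.63 and -2.30 (limma, adjusted p = 0.00104 and 7.39e-07). In amplified against total RNA 6 were higher and 3 lower (10.5% and 9.76% of all probe sets), led by the methyltransferase Ftsj3 at 1.21.

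Of the mitochondrial translation genes 14 of 26 were measured. Against amplified total RNA 3 were lower and 0 higher (median 0.13): Dap3, itself a small-subunit protein of the mitochondrial ribosome, at -1.33 (limma, adjusted p = 0.000118), the chaperonin Hspe1 at -1.09 and the isoleucyl-tRNA synthetase Iars2 at -1.09. Of all probe sets 9.12% were lower and 8.57% higher there. Against total RNA 5 were higher and 3 lower (median 0.23, against 20.3% and 18.9%), led by the transcription factor Tfb2m at 1.29 (limma, adjusted p = 5.44e-05), and in amplified against total RNA 3 were higher and 0 lower (10.5% and 9.76%), led by Tfb2m at 0.97. No gene of these lists was called for serum in any kind of RNA without the block.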

How the data were processed

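The deposited table gives a linear intensity for each Affymetrix probe set on each array (12488 probe sets, 23 arrays, 0 to 11017.1 in steps of 0.1). The authors' summarising software and any scaling are not given in the sources used here. Per the labels' protocols, RNA was reverse transcribed, linearly amplified and labelled with biotin by T7 transcription. Arrays were grouped by title. Here the arrays were quantile normalized and log2(value + 16) was taken, which understates changes where signal is dim. Tests did not include the 66 control probe sets.

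Differences were fitted by lmFit and eBayes of limma (version 3.58.1, R 4.3.3), with two-sided tests, on the arrays compared, with serum condition as an additive term between kinds of RNA. p-values were adjusted by Benjamini-Hochberg over 12422 probe sets and called below 0.05. The step was tested on simulated data. There were 8 comparisons. Values are log2 differences ± SE, and the number of arrays limits their precision. Gene names came from GEO's platform annotation, and Entrez identifiers found all 95 members in RefSeq. No pair of arrays held identical values.

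Members and gene lists were chosen with earlier results of these data known. Named members are, per comparison and class, the 5 called with the largest rise and the 5 with the largest fall, plus a fixed list of reference and paralogous members; of the related lists, the called gene with the largest difference. Mrpl52, Mrpl18, Rps20, Mrpl27, Mrpl58, Mrps36, Rps28, Rpl39l, Rpl7, Hspe1, Iars2, Nop10 and those listed as apart on every array were named after their values were seen. Same-numbered arrays were taken as pairs where the correlations of their deviations from group means, over all probe sets, all exceeded 0.1. They did between starved and treated arrays of newly transcribed (0.70 to 0.80) and of total RNA (0.23 to 0.70). Between kinds of RNA they did for treated arrays of newly transcribed and amplified total RNA (0.56 to 0.73) and of amplified total and total RNA (0.14 to 0.30). Starved arrays of the same kinds did not (lowest -0.39 and 0.07), so comparisons between kinds were not taken as paired. What same-numbered cultures share is not in the labels. Alternatives were values as deposited, arrays scaled to one median, pseudocounts of 1 and 64, a mean intensity of at least 50, other choices of probe set, blocks and leaving out each array. Fits within a profile cluster were added after the data were seen.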

Additional observations from a re-analysis of the deposited data

Results flagged for a closer look

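In each group of 4 arrays the highest and the lowest level of each named member, and of each class median, was compared with the other 3 arrays by Dixon's ratio. Of 195 sets of 4 values examined (37 members and both class medians in each group of 4) 13 held such an array, and chance flags about 1 in 20. No cause was tested for any of them.

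In newly transcribed starved RNA, replicate 1 was low for Rps7 (7.99, others 9.08 to 9.28) and Rpl13a (7.86, others 8.78 to 8.97) and high for Rpl32 (4.94, others 4.12 to 4.23), and replicate 4 was high for Rps27 (7.45, others 6.72 to 6.80) and low for Rps3 (10.95, others 11.43 to 11.46). In newly transcribed treated RNA, replicate 1 was low for Rpl37a (8.35, others 9.06 to 9.14), Mrps21 (6.27, others 7.48 to 7.66) and Rps4x (10.26, others 11.27 to 11.34), and replicate 4 was high for Rps14 (4.81, others 4.23 to 4.26). In amplified treated RNA, replicate 1 was high for Mrpl35 (8.999, others 8.47 to 8.52) and Rps27l (6.35, others 4.25 to 4.56). In total RNA, starved replicate 1 was high for Rpl13a (9.68, others 9.17 to 9.24) and treated replicate 3 was low for Mrpl43 (7.53, others 7.86 to 7.90). Replicates 1 and 4 of newly transcribed RNA are the arrays of that kind in profile cluster 1.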

How the results depend on the processing

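Limits first: 0 of the 10 cytosolic members with a mean intensity under 50 were called in newly transcribed minus amplified total RNA. Among all probe sets 9.12% were called lower and 8.57% higher there. Levels understate changes at dim probe sets, which limits what can be read of those genes.

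On values as deposited, in newly transcribed minus amplified total RNA 1 cytosolic member was lower and 0 higher. Of the mitochondrial members 0 were lower and 1 higher, with a median of -0.18. Calls were few over all probe sets too, with 0.129% lower and 0.555% higher. In newly transcribed minus total RNA 14 mitochondrial members were lower, where 11.2% of all probe sets were. In amplified total minus total RNA 0 and 0 cytosolic and 0 and 1 mitochondrial members were lower and higher, with medians of -0.19 and 0.031. Over all probe sets 2.65% were lower and 0.193% higher there. The serum medians (cytosolic, mitochondrial) were -0.025 and -0.34 in newly transcribed, 0.33 and 0.23 in total, and 0.49 and 0.49 in amplified total RNA. The response differences were -0.55 and -0.84 for newly transcribed minus amplified total and -0.32 and -0.49 for newly transcribed minus total RNA. Class levels by group were -0.17 (cytosolic, amplified starved), 0.41 (cytosolic, amplified treated), 0.17 and 0.40 (cytosolic, total starved and treated), -0.22 (mitochondrial, amplified starved), 0.058 (mitochondrial, newly transcribed starved) and 0.13 (mitochondrial, total treated).

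With arrays scaled to one median, the cytosolic median of newly transcribed minus amplified total RNA was -1.12. In amplified total minus total RNA 10 cytosolic members were higher, with a median of 0.22, and 1 mitochondrial member was lower. Over all probe sets 13.6% were higher and 6.47% lower. Rpl37a read 0.32 there and was called, opposite to its uncalled -0.20. Cytosolic levels were 0.46 (amplified treated), 0.15 (total starved) and 0.10 (total treated). With a mean intensity of at least 50, cytosolic medians were -0.88 (newly transcribed minus amplified total) and -0.99 (newly transcribed minus total). With a pseudocount of 64, 4 cytosolic members were higher in amplified total minus total RNA, where 9.89% of all probe sets were. With a pseudocount of 1 the cytosolic level in total starved was 0.35. Taking means over members gave -0.59 for newly transcribed starved. Probe sets without a letter suffix gave Mrps25 -0.69 in newly transcribed minus total RNA.

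With the profile cluster as a block, amplified total minus total RNA had 1 cytosolic and 0 mitochondrial members lower (8.31% of all probe sets). The mitochondrial median was 0.61, with Rpl10a at 0.017 and Mrpl52 at 0.68. Within cluster 2 this comparison had 4 cytosolic and 31 mitochondrial members higher (11.6% of all probe sets) and 0 mitochondrial lower (10.2%). Its mitochondrial median was 0.62, with Rpl10a at 0.022 and Mrpl52 at 0.70. Newly transcribed minus amplified total RNA had 14 mitochondrial members lower and 2 higher within cluster 1 (5.63% and 5.89% of all probe sets). Within cluster 2 it had 0 cytosolic and 8 mitochondrial members higher (17.7% of all probe sets) and a cytosolic median of -0.55. There newly transcribed minus total RNA had 17 mitochondrial members higher (20.7%). Apart from the smaller number of arrays within a cluster, the cause of these shifts was not tested.

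The replicate number as a block gave 1 cytosolic member called for serum in newly transcribed RNA, where 1.74% of all probe sets were called. Between kinds of RNA same-numbered starved arrays do not all deviate together. There the block gave 20 cytosolic and 31 mitochondrial members lower in newly transcribed minus amplified total RNA (13.3% of all probe sets). It gave 21 and 22 in newly transcribed minus total RNA (21.3%), and 4 and 3 in amplified total minus total RNA (12.6%). No other count of calls moved by over 1.5 times.

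Leaving out each array in turn, the cytosolic members higher in newly transcribed minus amplified total RNA ran from 0 to 1. Other class counts stayed within 1.5 times of those reported. Medians of differences between kinds of RNA kept their sign, except the cytosolic one of amplified total minus total RNA (-0.042 to 0.034). Serum medians moved more: 0.086 to 0.23 (cytosolic) and -0.095 to 0.22 (mitochondrial) in newly transcribed, -0.084 to 0.016 and -0.17 to -0.073 in total, and -0.023 to 0.10 and -0.11 to 0.13 in amplified total RNA.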
